A study of Mus musculus with 9 samples.

Results

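Expression of 10 genes of glucose uptake and glycolysis was followed in BMDMs, macrophages grown in culture from mouse bone marrow, after LPS and after pretreatment with the LXR agonist T0901317 (T0). The genes were chosen by name out of 24061 gene symbols in the count table, and all rows of a symbol were summed. They encode the glucose transporters Slc2a1 and Slc2a6, the hexokinases Hk2 and Hk3, the platelet-type phosphofructokinase Pfkp, the lower glycolytic enzymes Pgk1, Eno1 and Pkm, the lactate exporter Slc16a3 and the transcription factor subunit Hif1a. Reads were counted for 9 of the 10 genes, and 8 had enough counts to be tested.

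BMDMs came from wild-type female C57BL/6J mice aged 8 to 10 weeks, were differentiated for 7 days with L-cell medium, and spent 1 day without serum in 4% L-cell conditioned medium. The Veh group received DMSO alone, the LPS group received DMSO and then 10 ng/mL of LPS, a bacterial ligand of TLR4, for 2 hr, and the T0+LPS group received 500 nM T0 for 3 hr before the same LPS. Each group held 3 libraries of separately differentiated cultures. A group given T0 without LPS was not analysed here, and the harvest time of the Veh cells is not given in the sources used here. In all values against Veh, the treatment and any difference in culture time therefore cannot be told apart.

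Glycolysis converts glucose to pyruvate in the cytosol. Facilitative transporters carry glucose into the cell, hexokinases trap it as glucose 6-phosphate, phosphofructokinase commits it to breakdown, and the lower enzymes recover ATP before pyruvate is either oxidised in mitochondria or reduced to lactate and exported. Macrophages that meet LPS are known for a shift towards glycolysis and lactate release, in which HIF-1α, a transcription factor otherwise known from the response to low oxygen, drives many of the genes described here.

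Library totals ran from 13299044 to 16467983 counts. Replicate libraries differed by more than counting noise alone would give (chi-square over its degrees of freedom 2.63 to 6.67), and all 9 were kept as separate samples. Levels are CPM, counts relative to library size after scaling by TMM factors, which correct for library composition and were 1.14 in Veh and 0.931 to 0.948 in the LPS-treated groups. Of 9 macrophage markers, 8 held reads, with Itgam listed at 0, and their summed level was 27400 to 29650 CPM in Veh, 32820 to 34200 CPM in LPS and 35670 to 37070 CPM in T0+LPS. Of these markers, 1 (Mertk) was called higher in T0+LPS than in LPS by edgeR, and the part of these differences in the results was not tested. Neutrophil, dendritic cell, lymphocyte and fibroblast marker lists each summed to at most 4.08 CPM in any library, and erythroid markers were at 0. As described next, rows that share all their bases hold no reads, and this was not checked for the markers. A 0, as for Itgam, or a low sum therefore does not show that such cells were absent.

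How well a gene could be measured depended on how many of its bases belonged to 1 row of the table only. The table holds a row for each RefSeq transcript, and of 6696 rows in which every base lies in another row as well, none held a read. Slc2a1, Hk2, Pgk1 and Hif1a have 1 row each without shared bases, of 2572, 5511, 1825 and 4761 bases, and collected between 11651 and 36863 reads over the 9 libraries. The other members were counted on short stretches. Slc2a6 was read on 164 bases, of which 162 are 1 internal coding exon (chr2:27023088-27023249, mm10, minus strand). Both Pkm and Pfkp were read on a pair of alternative exons.

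For 3 members this left little or nothing. Hk3, a hexokinase known from leukocytes, has 4 rows (chr13:55005985-55021385, minus strand) that share every base, and no read was counted, so its level was not measured. Slc16a3 (chr11:120948484-120959000, plus strand) was read on the 96 bases of the first exon of 1 of its 3 rows, with 3 to 7 counts per library, and did not pass the filter. Eno1 (chr4:150237197-150248873, plus strand) has only 127 of its 1776 bases in no other row, and was tested on 12 to 36 counts per library. A low count of these genes says nothing of the abundance of their whole transcripts.

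**Figure D1:**
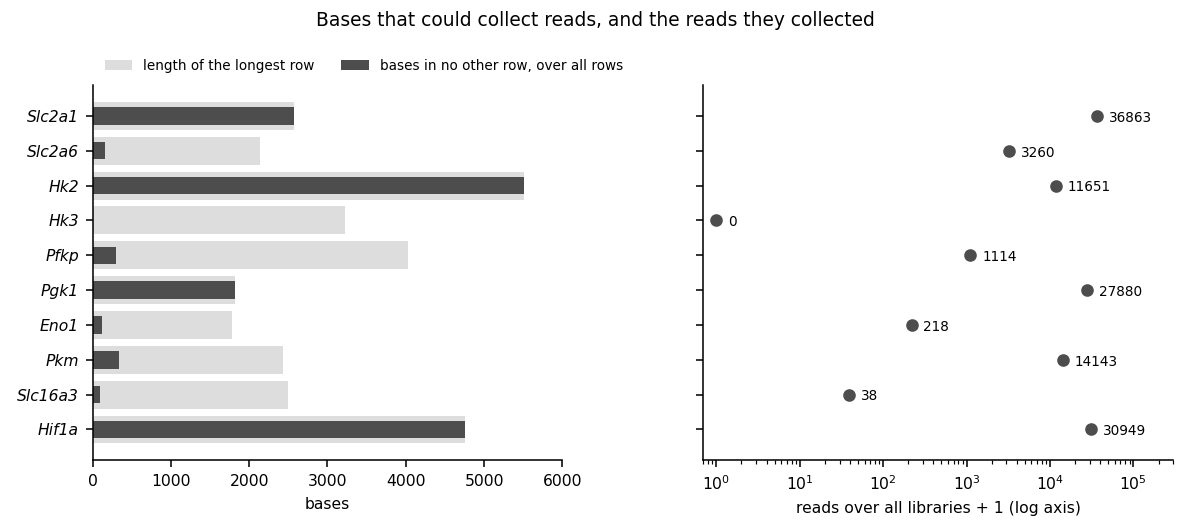
For each of the 10 genes, the left panel shows the length of its longest row (light bars, bases) and the bases that lie in no other row, summed over its rows (dark bars), and the right panel shows the reads counted over the 9 libraries plus 1 on a log axis, with the count printed. Hk3 has no dark bar and 0 reads, while Slc2a1 has 2572 of its 2572 bases and 36863 reads.

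Levels per kilobase of unshared bases set the genes side by side only roughly. Reads that reach from a short stretch into shared bases may go uncounted, which can lower Slc2a6, Pkm, Pfkp and Eno1. The order below is therefore one of counted reads and not of transcript abundance. Pkm was highest in Veh at 346 ± 17.1 CPM per kb (SD, n = 3), followed by Pgk1 at 101 ± 3.20, Slc2a1 at 41.1 ± 1.40 and Hif1a at 28.4 ± 0.401. Slc2a6 and Pfkp came next with libraries that overlapped, at 23.7 ± 2.45 and 20.0 ± 0.815 CPM per kb. Hk2 at 15.4 ± 0.469 and Eno1 at 13.9 ± 1.69 CPM per kb also overlapped. In LPS the order was Pkm at 281, Slc2a6 at 232, Slc2a1 at 161, Pgk1 at 129, Hif1a at 64.4, Pfkp at 34.3, Hk2 at 18.3 and Eno1 at 11.9 CPM per kb, and no pair of neighbours overlapped. The order in T0+LPS was that of LPS, with only Hk2 and Eno1 overlapping among these 8 genes. The Pkm and Pfkp values average over 2 alternative exons, of which a transcript holds 1, and the place of Pfkp depends on this. On the 153 bases of 1 exon, a setting chosen after seeing the data, Pfkp was at 40.1 ± 1.63 CPM per kb in Veh, overlapping Slc2a1 and above Hif1a, and at 68.6 ± 9.68 in LPS and 60.2 ± 5.17 in T0+LPS, overlapping Hif1a in both. Pkm was highest in all 3 groups either way.

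The promoters of 4 genes are printed because these genes carry the results that follow, Slc2a1 and Hk2 as the pair lowered by T0 and Slc2a6 and Hif1a as genes raised by LPS. Each line gives the 250 bases before the RefSeq start (GRCm38.p6) on the gene's own strand. Capitals mark the core of the HIF binding motif, ACGTG or GCGTG, on either strand.
Slc2a1, chr4:119108495-119108744, plus strand: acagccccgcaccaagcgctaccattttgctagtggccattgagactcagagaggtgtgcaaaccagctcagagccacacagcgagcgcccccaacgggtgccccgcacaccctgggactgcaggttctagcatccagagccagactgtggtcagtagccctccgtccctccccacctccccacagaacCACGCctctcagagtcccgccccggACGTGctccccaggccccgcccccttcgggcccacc
Hk2, chr6:82774455-82774704, minus strand: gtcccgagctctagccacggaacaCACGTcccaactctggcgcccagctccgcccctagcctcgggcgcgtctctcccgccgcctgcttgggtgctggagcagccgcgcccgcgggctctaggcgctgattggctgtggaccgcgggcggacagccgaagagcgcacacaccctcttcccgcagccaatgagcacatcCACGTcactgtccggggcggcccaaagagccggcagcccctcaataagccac
Slc2a6, chr2:27027999-27028248, minus strand: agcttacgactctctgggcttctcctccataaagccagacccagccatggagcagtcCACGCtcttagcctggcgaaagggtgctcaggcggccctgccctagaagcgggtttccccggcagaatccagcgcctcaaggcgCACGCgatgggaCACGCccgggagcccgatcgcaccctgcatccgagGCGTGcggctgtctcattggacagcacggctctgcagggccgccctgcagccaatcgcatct
Hif1a, chr12:73907617-73907866, plus strand: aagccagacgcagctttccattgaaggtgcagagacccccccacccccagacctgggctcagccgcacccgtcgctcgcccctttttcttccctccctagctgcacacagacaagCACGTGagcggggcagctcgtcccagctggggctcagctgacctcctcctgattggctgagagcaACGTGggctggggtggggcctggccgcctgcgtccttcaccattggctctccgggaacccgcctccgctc
The core occurred in 12 of 13 windows of the 10 genes and in at least 1 window of every gene, where 38.6% of all 32851 windows of this length held it. That share was not matched for base composition, and the members' windows had a GC content of 47.2% (Hk3) to 73.6% (Slc16a3). Eno1 has windows that overlap and hold the same matches. Slc2a6 had 4 matches, at 193, 109, 97 and 62 bases before its start. In Hif1a, 2 of the 3 matches overlap in 1 E-box (CACGTG), a motif that 6.02% of all windows held and no other member did. A match of 5 letters is a description of the sequence and no evidence of binding.

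LPS raised 6 of the 8 tested genes against Veh and lowered 1. The increases were 9.84-fold for Slc2a6, 3.93-fold for Slc2a1, 2.27-fold for Hif1a, 1.71-fold for Pfkp, 1.28-fold for Pgk1 and 1.19-fold for Hk2, while Pkm fell by 18.6%. Counts of this kind have a high background, since 32.9% of the 9559 genes tested were called higher and 31.2% lower by edgeR's quasi-likelihood test at a Benjamini-Hochberg adjusted p under 0.05. The libraries did not overlap between LPS and Veh for 7 of the 8 genes, against 67.4% of all genes. The median log2 fold change was 0.57 for the members and -0.002 for all genes. In bulk samples, fewer cells of a type and less RNA per cell cannot be told apart.

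T0 pretreatment lowered 2 of the 8 genes relative to LPS alone. Hk2 fell by 20.8% and Slc2a1 fell by 12.9%, and the other 6 did not pass the threshold. Of the 9348 genes tested in this comparison, 1.83% were called lower and 1.35% higher. None of the members was called higher by edgeR's quasi-likelihood test in the main fit, with 6 libraries, the filter on low counts and no replicate block. DESeq2 and limma-voom called no member higher either. Pkm was higher at an unadjusted p under 0.05 from edgeR, and was called higher by edgeR in 3 of the 8 alternative settings. T0+LPS and LPS libraries lay apart for 4 of the 8 genes (Slc2a1, Hk2, Pkm and Hif1a), against 19.1% of all genes. The median log2 fold change was -0.10 for the members and 0.003 for all genes, and 171 genes called lower over the whole table had a median of -0.34.

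**Figure D2:**
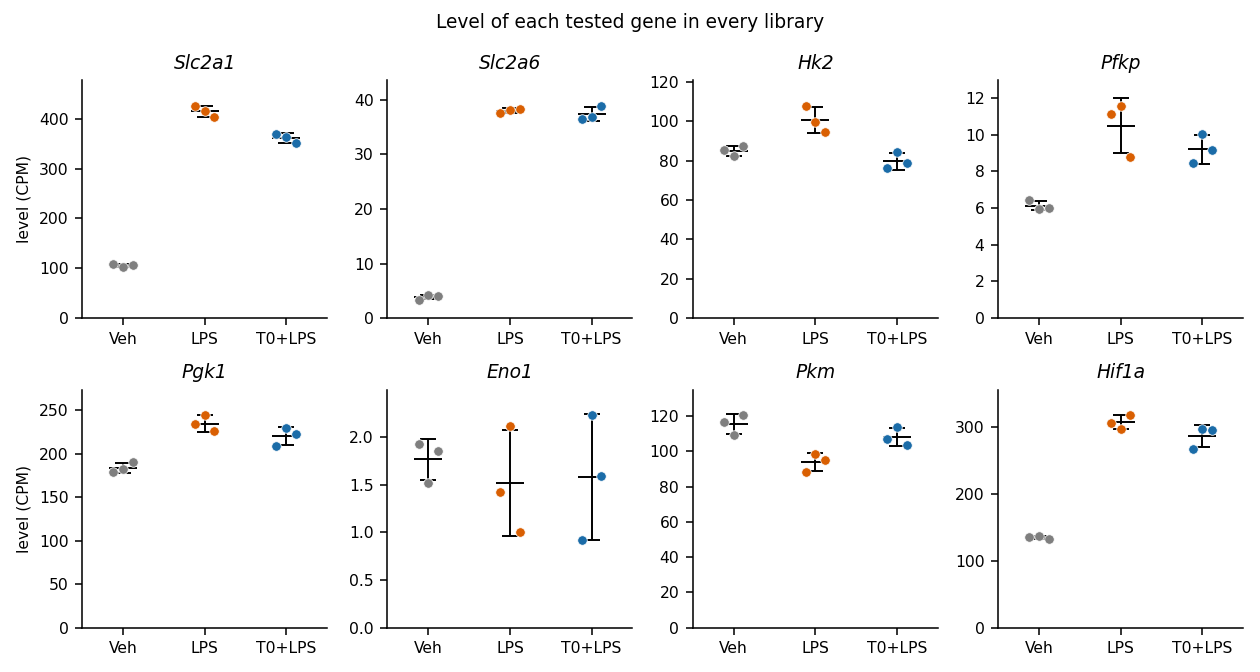
Level in CPM (vertical axes from 0, a scale for each gene) of the 8 tested genes in the 9 libraries of Veh (grey), LPS (orange) and T0+LPS (blue). Points are libraries and bars are mean ± SD (n = 3). For Slc2a1 and Hk2 the 3 T0+LPS libraries lie below the 3 LPS libraries, and the Slc2a6 points of LPS and T0+LPS lie at 36.5 to 38.9 CPM.

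Slc2a1 encodes GLUT1, the transporter of basal glucose uptake in most cells, and lies at chr4:119108745-119137329 on the plus strand. Its level was 109, 102 and 107 CPM in the Veh libraries, 426, 415 and 403.5 CPM in the LPS libraries and 369, 364 and 351 CPM in the T0+LPS libraries. The 3 groups did not overlap, with LPS highest and T0+LPS between LPS and Veh. The log2 fold change of LPS over Veh was 1.97 (SE 0.045, adjusted p = 8.51e-16, edgeR's quasi-likelihood test). For T0+LPS over LPS it was -0.20 (SE 0.045, 95% interval -0.29 to -0.10, adjusted p = 0.0216, edgeR). The call for T0+LPS over LPS was lost when LPS replicate 1 was left out (log2 -0.18, adjusted p = 0.171, edgeR), and likewise T0+LPS replicate 2 (-0.20, 0.0845) and T0+LPS replicate 3 (-0.18, 0.116).

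Slc2a6 encodes GLUT6, a transporter found on lysosomal membranes of macrophages. Its level was 3.42, 4.17 and 4.05 CPM in Veh, from 63 to 70 counts per library, 37.5, 38.1 and 38.3 CPM in LPS, and 36.5, 36.8 and 38.9 CPM in T0+LPS. Every LPS-treated library lay far above every Veh library, and the LPS and T0+LPS libraries overlapped. The log2 fold change of LPS over Veh was 3.30 (SE 0.094, adjusted p = 1.52e-14, edgeR's quasi-likelihood test). That of T0+LPS over LPS was -0.02, with a 95% interval of -0.16 to 0.11 (adjusted p = 0.934, edgeR). These values describe the transcripts that include the 162-base exon, because the second Slc2a6 row without it shares all its bases and was at 0. The annotated transcripts Slc2a6-203 and Slc2a6-205 also cover these bases without coding there, so the reads need not all come from the coding form.

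Hk2 encodes hexokinase 2, the inducible enzyme of the first step, which binds to mitochondria (chr6:82725027-82774454, minus strand). It had 85.4, 82.3 and 87.5 CPM in Veh, 108, 99.7 and 94.5 CPM in LPS and 76.0, 84.2 and 78.8 CPM in T0+LPS. LPS lay above both other groups without overlap, while Veh and T0+LPS overlapped. The log2 fold change of T0+LPS over LPS was -0.34 (SE 0.060, 95% interval -0.47 to -0.21, adjusted p = 0.00458, edgeR's quasi-likelihood test). With each library left out in turn it was -0.38 to -0.29, with adjusted p-values from edgeR of 0.00123 to 0.0431. The increase with LPS was 0.25 on the log2 scale (SE 0.054, adjusted p = 0.000837, edgeR). Its direction depended on scaling, being -0.04 (adjusted p = 0.53, edgeR) when library totals were used without TMM factors, and over the 8 alternative settings adjusted p-values were 0.000212 to 0.53.

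With library totals alone, the median over all genes of LPS over Veh was -0.28 on the log2 scale, and the share of calls that were lower went from 48.6% to 76.2%. Values of LPS over Veh are therefore relative to this median. On library totals Slc2a1, Slc2a6, Hif1a and Pfkp were still called higher and Pkm was still called lower, while Pgk1 was not called (0.07, adjusted p = 0.147, edgeR). The median of T0+LPS over LPS was -0.002 on library totals, and the calls of Hk2 and Slc2a1 were kept.

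Pfkp encodes the platelet-type subunit of phosphofructokinase, the enzyme of the committed step (chr13:6579874-6648771, minus strand). Its level was 6.41, 5.95 and 6.02 CPM in Veh, 11.1, 11.6 and 8.80 CPM in LPS and 8.45, 10.0 and 9.15 CPM in T0+LPS. All LPS-treated libraries lay above Veh, and the LPS and T0+LPS libraries overlapped. LPS over Veh was 0.78 on the log2 scale (SE 0.13, adjusted p = 5.24e-05, edgeR's quasi-likelihood test). T0+LPS over LPS was -0.19 with a 95% interval of -0.46 to 0.09 (adjusted p = 0.593, edgeR), from 111 to 159 counts per library.

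Pgk1 encodes phosphoglycerate kinase 1, which makes ATP in lower glycolysis (chrX:106187100-106203699, plus strand). Its level was 179, 182.5 and 190.1 CPM in Veh, 234, 244.5 and 226 CPM in LPS and 209, 230 and 222 CPM in T0+LPS. LPS and T0+LPS overlapped and both lay above Veh. LPS over Veh was 0.36 (SE 0.045, adjusted p = 3.65e-06, edgeR's quasi-likelihood test) and T0+LPS over LPS was -0.09 (95% interval -0.20 to 0.02, adjusted p = 0.473, edgeR). Of all stretches of 50 bases in annotated Pgk1 transcripts, 68.0% also occur in other genes, almost all of them in Pgk1-rs7. How reads that fit both were assigned is not given in the sources used here.

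Eno1 encodes enolase 1, which forms phosphoenolpyruvate. On its 127 unshared bases it had 1.92, 1.52 and 1.85 CPM in Veh, 1.43, 2.11 and 1.00 CPM in LPS and 0.914, 2.23 and 1.60 CPM in T0+LPS, and all 3 groups overlapped. No change was detectable at this depth, with a log2 fold change of 0.06 for T0+LPS over LPS (95% interval -0.66 to 0.79) and -0.22 for LPS over Veh (-0.79 to 0.35).

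Pkm encodes the muscle-type pyruvate kinase, the last enzyme of glycolysis (chr9:59656368-59679375, plus strand). Its level was 117, 109 and 121 CPM in Veh, 88.3, 98.3 and 94.9 CPM in LPS and 107, 114 and 104 CPM in T0+LPS. It was the only tested member that LPS lowered, and LPS lay below both other groups without overlap, whereas Veh and T0+LPS overlapped. LPS over Veh was -0.30 (SE 0.054, adjusted p = 0.000151, edgeR's quasi-likelihood test). T0+LPS over LPS was 0.20 (SE 0.057, 95% interval 0.083 to 0.33) and did not pass the threshold (adjusted p = 0.0702, edgeR). It passed when no filter on low counts was used (adjusted p = 0.0161) or when all 9 libraries entered 1 fit (0.0426), both with edgeR, and the 8 alternative settings gave 0.0161 to 0.0864.

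Hif1a encodes the regulated subunit of HIF-1, whose level is also known to be set by degradation of the protein (chr12:73907867-73947530, plus strand). Its mRNA was at 135, 137 and 133 CPM in Veh, 306, 297 and 317 CPM in LPS and 266.5, 296 and 295 CPM in T0+LPS. The LPS-treated libraries lay above Veh, and the highest T0+LPS library lay just under the lowest LPS library. LPS over Veh was 1.19 (SE 0.043, adjusted p = 4.41e-13, edgeR's quasi-likelihood test). T0+LPS over LPS was -0.10 (95% interval -0.21 to 0.01, adjusted p = 0.421, edgeR). No protein was measured in these libraries.

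**Figure D3:**
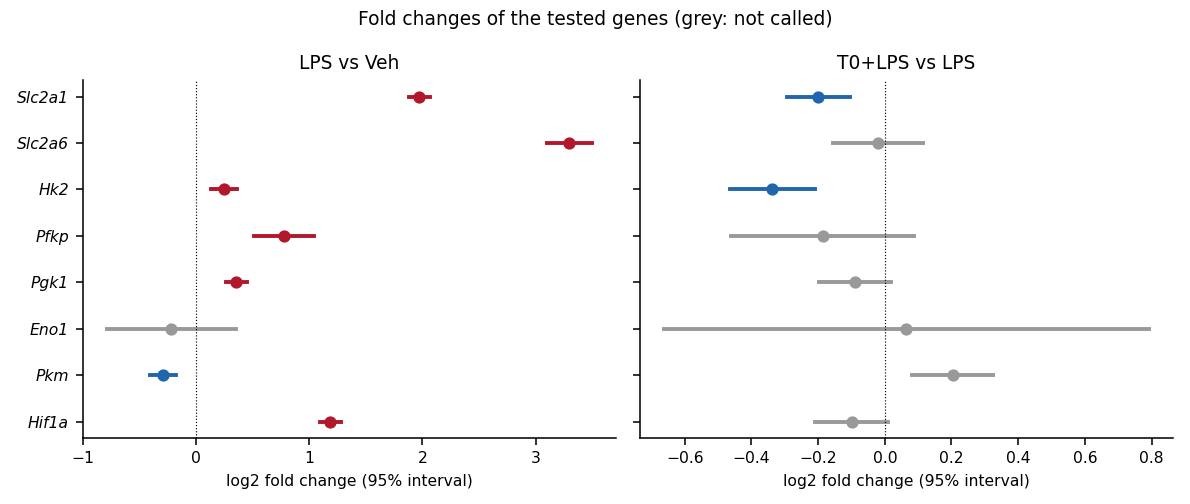
Log2 fold changes with 95% intervals of the 8 tested genes for LPS over Veh (left) and T0+LPS over LPS (right, on a narrower scale), in red where called higher, blue where called lower and grey where not called by edgeR. LPS over Veh ran from -0.30 (Pkm) to 3.30 (Slc2a6) and T0+LPS over LPS from -0.34 (Hk2) to 0.20 (Pkm), and on library totals alone the LPS value of Hk2 turned to -0.04 and Pgk1 lost its call.

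Both comparisons share the LPS libraries, so a high or low LPS mean enters both with opposite sign, and no relation between them was computed. Against Veh, T0+LPS was higher for 5 of the 8 genes and lower for 2, where 32.4% of 9636 genes were called higher and 32.9% lower. The libraries did not overlap for 5 of the 8 genes, against 69.4% of all genes. Slc2a6 stayed 9.54-fold, Slc2a1 3.36-fold, Hif1a 2.09-fold, Pfkp 1.48-fold and Pgk1 1.18-fold above Veh, and on library totals alone Pgk1 turned to -0.02 on the log2 scale (adjusted p = 0.657, edgeR). Hk2 and Pkm were called lower than Veh by 0.12 on the log2 scale each, with overlapping libraries and adjusted p-values of 0.0466 and 0.0472 from edgeR's quasi-likelihood test. On library totals alone both were further below Veh, at -0.38 each. DESeq2 called neither (adjusted p = 0.162 and 0.132), and over the 8 alternative settings adjusted p-values were 3.9e-06 to 0.162 for Hk2 and 4.62e-06 to 0.166 for Pkm. Both calls were also lost without Veh replicate 1 (0.103 and 0.107, edgeR), Veh replicate 3 (0.16 and 0.20), T0+LPS replicate 1 (0.217 and 0.113) or T0+LPS replicate 3 (0.166 and 0.246).

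Pkm and Pfkp were each counted on a pair of exons that replace each other in the transcript, which is shown here because every read of these genes fell on them. Each pair has the same length, and capitals mark the positions at which its members differ. Of the Pkm rows, row 1 holds the exon of the M1 form (chr9:59675029-59675195, mm10, plus strand) and row 2 that of the M2 form (chr9:59675568-59675734), which is known from proliferating cells and macrophages and can be allosterically regulated. Of the Pfkp rows, row 1 holds the exon at chr13:6597859-6598011 and row 2 that at chr13:6593101-6593253 (minus strand). All 4 exons are coding over their whole length.
Pkm row 1: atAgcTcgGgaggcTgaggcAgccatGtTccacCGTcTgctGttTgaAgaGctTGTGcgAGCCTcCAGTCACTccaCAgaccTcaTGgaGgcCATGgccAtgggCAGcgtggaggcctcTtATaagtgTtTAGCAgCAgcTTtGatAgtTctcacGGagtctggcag
Pkm row 2: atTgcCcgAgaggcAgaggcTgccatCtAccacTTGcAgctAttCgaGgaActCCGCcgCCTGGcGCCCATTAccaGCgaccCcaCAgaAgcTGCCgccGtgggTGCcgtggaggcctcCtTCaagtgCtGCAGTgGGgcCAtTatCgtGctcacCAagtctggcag
Pfkp row 1: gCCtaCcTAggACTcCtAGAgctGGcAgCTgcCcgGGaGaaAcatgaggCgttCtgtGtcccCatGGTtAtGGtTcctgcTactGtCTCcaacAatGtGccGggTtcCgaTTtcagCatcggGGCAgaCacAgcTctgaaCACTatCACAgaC
Pfkp row 2: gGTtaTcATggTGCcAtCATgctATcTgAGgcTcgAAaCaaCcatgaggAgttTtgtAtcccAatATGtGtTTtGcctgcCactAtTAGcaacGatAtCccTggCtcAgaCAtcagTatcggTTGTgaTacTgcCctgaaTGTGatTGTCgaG
The Pkm exons are identical at 103 of 167 positions (61.7%) and the Pfkp exons at 90 of 153 (58.8%).

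Most Pkm reads fell on the M2 exon. The M1 exon held 24.3%, 26.7% and 27.1% of the reads on both in Veh, 20.6%, 23.2% and 25.4% in LPS, and 23.9%, 25.1% and 22.5% in T0+LPS. The 3 groups overlapped, and the mean share differed between LPS and Veh by -2.93 percentage points (exact permutation test, 2-sided, p = 0.2) and between T0+LPS and LPS by 0.757 points (p = 0.7). Both exons were lower in LPS than in Veh, the M1 exon by 0.47 (adjusted p = 0.00042) and the M2 exon by 0.24 (adjusted p = 0.000859) on the log2 scale, with edgeR's quasi-likelihood test on rows. An annotated transcript with a retained intron also covers the M1 exon, so its reads need not all come from the M1 form. In addition, 23.7% of the stretches of 50 bases in annotated Pkm transcripts also occur in other genes. How far this touches either exon, and so the share, was not examined.

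Pfkp reads lay mainly on row 1, at 88.3%, 87.8% and 87.5% in Veh, 80.7%, 78.0% and 78.9% in LPS and 81.1%, 79.9% and 85.6% in T0+LPS. Every LPS-treated library had a lower share than every Veh library, and LPS and T0+LPS overlapped. The mean share in LPS minus that in Veh was -8.65 percentage points, with an exact permutation p of 0.1, the smallest 2-sided p that 3 against 3 allows. Both exons were higher in LPS, by 0.62 for row 1 (SE 0.13, adjusted p = 0.000738) and by 1.55 for row 2 (SE 0.26, adjusted p = 6.61e-05) on the log2 scale from edgeR. Row 2 held only 11 to 35 counts per library, and its T0+LPS over LPS value of -0.40 had a 95% interval of -0.94 to 0.13. For single libraries the Wilson 95% intervals of the Pfkp share reached from 79.4% to 93.0% in Veh replicate 2 and from 70.9% to 83.7% in LPS replicate 2, and these cover counting error only. The annotated transcript Pfkp-203 also holds the row 1 exon. Of the stretches of 50 bases in annotated Pfkp transcripts, 15.4% also occur in Pitrm1. How far these stretches touch either exon, and so the share, was not examined.

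**Figure D4:**
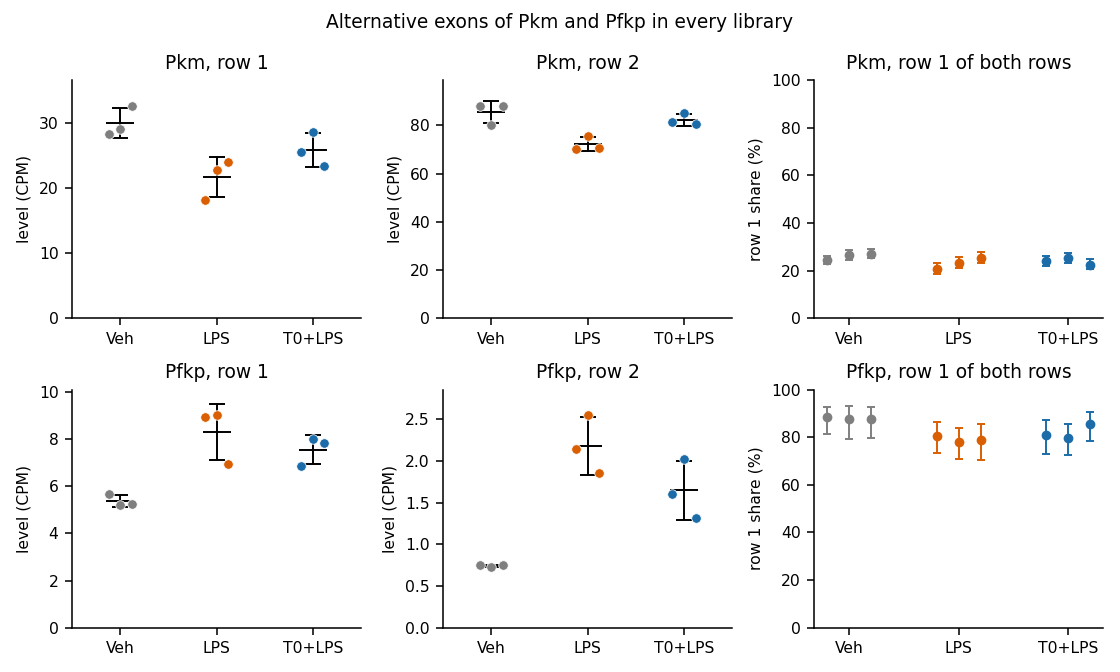
Alternative exons of Pkm (top) and Pfkp (bottom) in Veh (grey), LPS (orange) and T0+LPS (blue). The left and middle panels give the level of each row in CPM with mean ± SD (n = 3), and the right panels give the share of reads on row 1 in percent for each library with its Wilson 95% interval. The Pfkp share is 87.5% to 88.3% in Veh and 78.0% to 85.6% in the LPS-treated libraries, while the Pkm groups overlap.

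The rest of the pathway was read from 8 lists with 101 further genes, from glucose transport to HIF targets. In T0+LPS against LPS, 69 of them were tested, 1 was called higher and 1 lower, and their median log2 fold change was -0.007. Over all 9348 genes tested, 1.35% were called higher and 1.83% lower, and no list was tested against this. Pdp2, a phosphatase that activates pyruvate dehydrogenase, was at 14.9, 16.8 and 17.1 CPM in LPS and 19.3, 23.2 and 21.2 CPM in T0+LPS, without overlap. Its log2 fold change was 0.38 (SE 0.095, adjusted p = 0.0386, edgeR's quasi-likelihood test). The Pdp2 call was lost in 4 of the 6 fits without 1 library, those without LPS replicate 1 (adjusted p = 0.219), LPS replicate 2 (0.0634), T0+LPS replicate 2 (0.186) and T0+LPS replicate 3 (0.0965), and under DESeq2 (0.052).

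LPS against Veh called 19 of 68 tested list genes higher and 22 lower, with a median log2 fold change of -0.008. Over all genes 32.9% were called higher and 31.2% lower, so the lists as a whole lay near the background, and no list was tested against it. Among 3 tested genes of glucose transport, Arrdc4, an arrestin-like protein that promotes removal of glucose transporters from the cell surface, rose 11.8-fold from 8.22 ± 0.197 to 97.0 ± 10.7 CPM (SD, n = 3). The transporters Slc2a3 and Slc2a8 fell by 0.65 and 0.50 on the log2 scale. Of 10 other tested glycolytic genes, 2 were higher, the liver-type phosphofructokinase Pfkl (0.49) and the neuronal enolase Eno2 (0.21), and 2 were lower, including Bpgm (-0.58), which makes 2,3-bisphosphoglycerate. Genes that set fructose 2,6-bisphosphate and gluconeogenesis were called lower in 4 of 6 cases (31.2% of all genes), with Pfkfb4 at -1.12 and Pck2 at -0.85, while the gene listed as 9630033F20Rik, which is Tigar, was at 0.32.

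Of 13 tested genes of lactate and pyruvate metabolism, 3 were higher in LPS, among them the mitochondrial pyruvate carrier Mpc1 (0.29) and the pyruvate dehydrogenase subunit Dlat (0.17), and 3 were lower, among them the pyruvate dehydrogenase kinases Pdk2 (-0.89) and Pdk1 (-0.37). The pentose phosphate pathway had 3 of 9 genes higher, with Rpe at 0.32 and Rpia at 0.23. It had 3 lower, including the lactonase Pgls at -0.17 and, under the mean of 5 CPM set for naming, Shpk at -1.64. Glycogen genes were called lower in 5 of 10 cases, beside the same 31.2% of all genes, with glycogenin Gyg falling by 0.98 from 141 ± 3.70 to 71.7 ± 1.55 CPM and the phosphorylase Pygb falling by 0.40, and 1, the branching enzyme Gbe1, was higher (0.19). In the HIF pathway 2 of 6 genes were called, the prolyl hydroxylase Egln3 at 0.71 and the HIF inhibitor Hif1an at -0.19. Beside the counts of all these lists, 32.9% of all genes were called higher and 31.2% lower.

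HIF target genes outside glycolysis went both ways. Of 11 tested, 7 were called higher and 2 lower, where all genes gave 32.9% and 31.2%. The oxidoreductase Ero1l rose by 0.85 on the log2 scale. Adm, under the mean of 5 CPM set for naming, rose by 7.68 (SE 0.42). Its level went from 0.022 ± 0.038 to 5.69 ± 0.330 CPM, so few reads stand behind the Veh value. Ankrd37, known as a HIF target, fell by 3.17 from 12.4 ± 1.40 to 1.36 ± 0.372 CPM (SE 0.18), and the mitophagy receptor Bnip3 fell by 0.27. On library totals alone, the list counts were 8 higher and 46 lower, with Arrdc4, Pfkl, Egln3 and Ero1l still called higher. The values of Eno2, Dlat, Rpia and Gbe1 turned negative there, between -0.12 and -0.06, and those of Tigar, Mpc1 and Rpe were at 0.03, 0.01 and 0.04, none of these 7 being called.

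**Figure D5:**
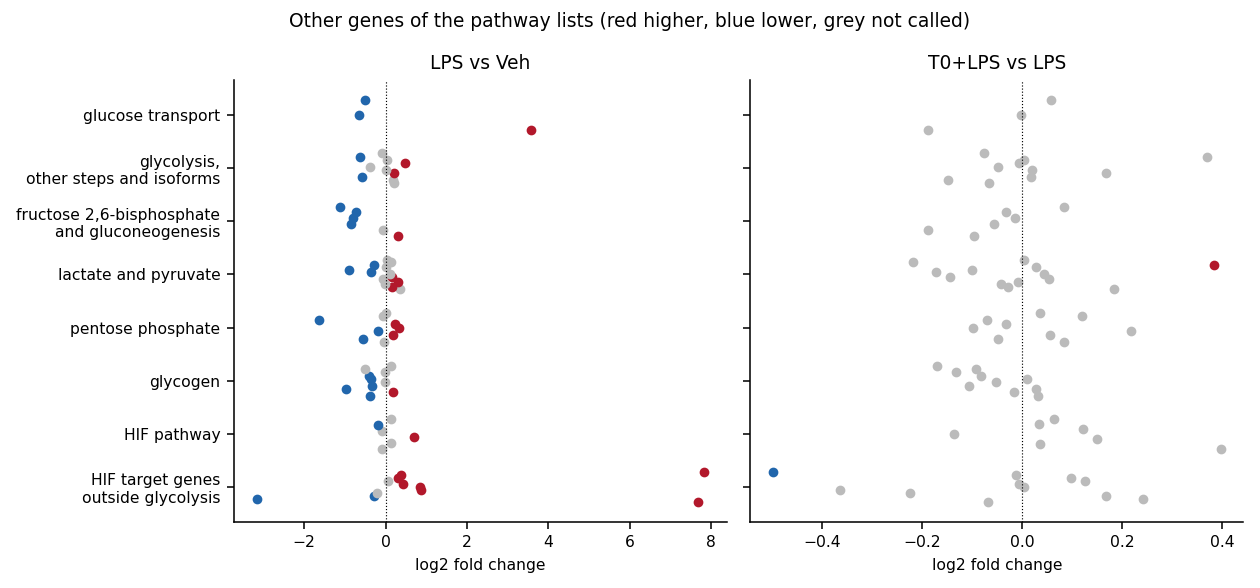
Log2 fold changes of the tested genes of the 8 pathway lists for LPS over Veh (left) and T0+LPS over LPS (right, on a narrower scale). Each point is a gene, red where called higher, blue where called lower and grey where not called by edgeR with TMM factors. The LPS over Veh values include -3.17 (Ankrd37) and 3.56 (Arrdc4), with 19 genes higher and 22 lower, or 8 and 46 on library totals alone. T0+LPS over LPS had 1 called gene in each direction. With TMM factors, 32.9% of all genes were higher and 31.2% lower in LPS over Veh, and 1.35% and 1.83% in T0+LPS over LPS.

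For 32 of the 101 list genes the mean was under 10 counts per library, and 16 of these have several rows. Gapdh had 15 reads over the 9 libraries on 296 unshared bases, Ldha, the lactate dehydrogenase subunit, 44 reads on 307, and Pfkfb3 32 reads on 103. Vegfa, with 9 rows, had no unshared base and Txnip had 3, and no read was counted for either. These are central glycolytic or HIF-regulated genes whose response to LPS or T0 could not be read from the table, and the same holds for Hk3 and Slc16a3 among the members.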

How the data were processed

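PolyA-selected RNA of 9 BMDM libraries was sequenced by the authors, who trimmed reads with cutadapt, used HISAT2 for alignment to the transcriptome of mm10 and featureCounts for counting on RefSeq transcripts. The deposited values are whole read counts per transcript row, not normalized. The authors' own comparison tables (base means, RPKM ratios, p-values and gene lists) were not used. Bases of a row covered by another row on either strand were found from the exon positions in the count table, and reads on such bases are not in the counts.

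Rows were summed by gene symbol. For each pair of groups, genes were kept with filterByExpr, scaled with TMM factors and tested with the quasi-likelihood test of edgeR 4.0.16 in R 4.3.3 on 6 libraries, with Benjamini-Hochberg adjustment over all genes tested and a call at an adjusted p under 0.05. SE is the log2 fold change divided by the square root of F. The test was checked on simulated counts. Alternatives were DESeq2 size factors, library totals alone, no filter, DESeq2 1.42.0, limma-voom (limma 3.58.1), all 9 libraries in 1 fit, the deposited row as unit, a block for the replicate number, and leaving out each library. Exon shares were compared with exact permutation tests in SciPy 1.17.1. Shares of 50-base stretches used GENCODE M21 transcripts.

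Besides the 10 members, list genes were named if called in T0+LPS against LPS, or if among the 2 largest called increases or 2 largest called decreases of a list in LPS against Veh with a mean of at least 5 CPM. A gene that the rule selects is not reported here. Genes with few reads, and Adm and Shpk under the mean of 5 CPM, were named after their values were seen. Members and lists were chosen with earlier results of these data known. At 13299044 to 16467983 counts per library, 1 read is worth less than 0.1 CPM, and intervals on shares cover counting error only.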

Additional observations from a re-analysis of the deposited data

How the results depend on the processing

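In T0+LPS against LPS, 2 members were called, and 2 to 3 under the 8 alternative settings. With 1 library left out the number was 1 to 2, the lower value in the 3 fits in which Slc2a1 lost its call (leaving out LPS replicate 1, T0+LPS replicate 2 and T0+LPS replicate 3). Of the list genes, 1 was called under DESeq2 and 1 to 2 with 1 library left out, in place of 2, and 3 without a filter, with all 9 libraries in 1 fit and with the replicate block. Over all genes, testing without a filter gave 225 higher and 285 lower in place of 126 and 171, and leaving out 1 library gave 141 to 358 calls, with 141 without LPS replicate 1, 172 without T0+LPS replicate 2 and 189 without T0+LPS replicate 1. On library totals alone, Hk2 was at -0.0375 in LPS over Veh and Pgk1 at -0.0215 in T0+LPS over Veh. The same scaling gave 1694 higher and 5411 lower genes for LPS against Veh in place of 3148 and 2981, and 76.9% lower calls for T0+LPS against Veh in place of 50.4%. The cause was not tested for these changes.

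Deviations of same-numbered libraries from their group means correlated at -0.014 to 0.046, so no strong shared shift by replicate number was seen. With 3 libraries per group this does not settle whether the cultures were paired. With the replicate block in edgeR, 3 members were called in T0+LPS against LPS, with Pkm at 0.20 (adjusted p = 0.0428) added, and in T0+LPS against Veh 5 were called, Hk2 (adjusted p = 0.0602) and Pkm (0.0621) not among them. The block gave 155 higher and 230 lower genes over the whole table for T0+LPS against LPS. Hk2 and Pkm in T0+LPS against Veh were also not called with DESeq2 size factors (adjusted p = 0.0855 and 0.0848, edgeR) or with all 9 libraries in 1 fit (0.145 and 0.124). Low counts on few unshared bases limit Eno1 (12 to 36 per library), Slc16a3 (3 to 7) and row 2 of Pfkp (11 to 35).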
